A study of Mus musculus with 9 samples.

Results

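The mitochondrial ribosomal protein genes were taken as every gene whose symbol begins with Mrpl or Mrps and a number and that had a probe set naming it alone. There were 77 of them among 19938 genes, 48 for the large subunit (Mrpl) and 29 for the small subunit (Mrps). Where a gene had more than 1 such probe set, the one with the highest mean over the arrays stood for it. RNA was measured on 9 Affymetrix arrays from mouse dendritic cells grown for 8 days with the cytokine GM-CSF from cultured bone marrow progenitors. The 3 groups held 3 independent cultures each. The first group was JmjD2d-knockdown cells exposed for 4 h to 100 ng/ml LPS, a bacterial wall component sensed by Toll-like receptor 4, the second was wild-type cells given the same LPS, and the third was wild-type cells left unstimulated. JmjD2d is the histone H3 lysine 9 demethylase encoded by Kdm4d. The hairpin was delivered by retroviral infection of the progenitors, followed by selection with 2 mM histidinol. The titles of the wild-type arrays name the cells WT and mention no hairpin or infection. Arrays of a control hairpin and of unstimulated knockdown cells were not analysed here, so the hairpin cannot be told apart from infection and selection.

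The mitoribosome makes the proteins encoded by mitochondrial DNA, all of them core subunits of the respiratory chain and the ATP synthase. Its small subunit reads the codon and its large subunit joins the amino acids. Every one of its proteins is encoded in the nucleus, made in the cytosol and imported. Some descend from bacterial ribosomal proteins and others were added in the mitochondrial lineage. Dendritic cells that meet LPS are known to raise glycolysis, and with sustained activation to lower mitochondrial respiration.

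Many, but not all, promoters of the genes whose values are given below carry short motifs of factors known to act at genes for mitochondrial proteins. RefSeq windows of 300 bases (250 before and 50 after the annotated start, build GRCm38.p6) were held for 68 of the 77 genes. The ETS motif CCGGAAG, in either orientation, the core of sites for the factor GABPA, was in 24 of the 68 windows (35.3%), against 11.9% of 17492 windows of protein-coding genes. The YY1 motif AAGATGG was in 13 (19.1%), against 6.37%. The NRF1 motif GCGCATG was in 8 (11.8%), against 4.89%, 7 of them for the large subunit and 1 for the small. At least 1 of these 3 motifs was in 52.4% of the large-subunit and 53.8% of the small-subunit windows, against 21.0% of all protein-coding windows. The E-box CACGTG was in 7.35% of the members' windows and in 7.9% of all, and the letters TATAAA were in 5.88% and 13.3%. Both strands were searched for each motif. The members' windows held a median of 21 CG dinucleotides against 13 in all protein-coding windows, and a match in these letters is a description, not a measured site. The 150 bases before the start are shown 5′ to 3′ on the gene's strand for 4 genes that passed a test in at least 1 comparison, with matches to the ETS, YY1 or NRF1 letters in capitals. Mrpl34 (chr8:71464776-71464925, plus strand) and Mrps27 (chr13:99344636-99344785, plus strand) were lower after LPS and hold an ETS match close to the start. The last 19 bases of the Mrps27 window lie within the gene's annotated span. Mrpl39 (chr16:84735245-84735394, minus strand) was higher in the knockdown and holds 2 overlapping NRF1 matches, and Mrpl32 (chr13:14613038-14613187, minus strand), higher in the knockdown than in unstimulated cells, holds 4 NRF1 matches, 2 of them overlapping. The 4 were picked to show these matches. Over all windows the ETS letters were in 3 of the 9 members called lower after LPS (33.3%) and in 21 of the 59 not called (35.6%), the NRF1 letters in 0 of 9 and 8 of 59, and the YY1 letters in 4 of 9 and 9 of 59.
Mrpl34: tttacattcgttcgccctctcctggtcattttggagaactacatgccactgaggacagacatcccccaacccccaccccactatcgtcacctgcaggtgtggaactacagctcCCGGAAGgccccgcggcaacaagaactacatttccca
Mrps27: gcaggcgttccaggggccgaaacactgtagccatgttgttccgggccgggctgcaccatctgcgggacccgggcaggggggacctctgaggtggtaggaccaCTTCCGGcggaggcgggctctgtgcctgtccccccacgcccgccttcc
Mrpl39: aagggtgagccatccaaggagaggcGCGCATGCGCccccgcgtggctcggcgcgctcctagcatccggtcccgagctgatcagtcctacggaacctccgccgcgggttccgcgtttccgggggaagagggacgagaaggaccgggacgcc
Mrpl32: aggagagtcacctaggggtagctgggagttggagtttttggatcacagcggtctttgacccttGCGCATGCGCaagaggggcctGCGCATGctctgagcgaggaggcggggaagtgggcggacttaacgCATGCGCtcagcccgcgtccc

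Before the members are described, 3 features of the arrays bear on them. Arrays of a group correlated at 0.985 to 0.997, and array medians lay between 7.22 and 7.31 on the log2 scale. Kdm4d gave log2 values of 7.43, 7.11 and 7.40 in the knockdown, against 7.79, 7.54 and 7.74 in the LPS-treated and 7.24, 7.65 and 7.62 in the unstimulated wild-type arrays. The knockdown lay below both wild-type groups on average, but limma did not call the difference after LPS (log2 difference -0.37, SE 0.13, adjusted p = 0.278). The dendritic markers Itgax and Cd74 averaged 12.8 and 13.4 on the log2 scale over the arrays and Flt3 6.63, while the macrophage markers Adgre1 and Cd68 averaged 13.3 and 13.6 and, lowest of their list, Cd163 and Vsig4 6.32 and 4.98. Finally, replicate 2 of the LPS-treated wild-type cells stood apart for the members, as the plot of array means shows, and results that rest on it are given with and without it.

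The mean log2 value of the 48 large-subunit genes was 9.67, 9.83 and 9.75 in the LPS-treated knockdown arrays, 9.45, 9.77 and 9.50 in the LPS-treated wild-type arrays, and 9.77, 9.89 and 9.80 in the unstimulated wild-type arrays. The mean of the 29 small-subunit genes was 9.31, 9.42 and 9.38 in the knockdown, 9.11, 9.35 and 9.16 in LPS-treated wild-type cells, and 9.42, 9.50 and 9.45 in unstimulated cells. In both subunits the LPS-treated wild-type replicates 1 and 3 were the lowest of the 9 arrays, and replicate 2 of that group lay among the knockdown arrays. The mean over all 19938 genes moved between 7.99 and 8.02 only.

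**Figure D1:**
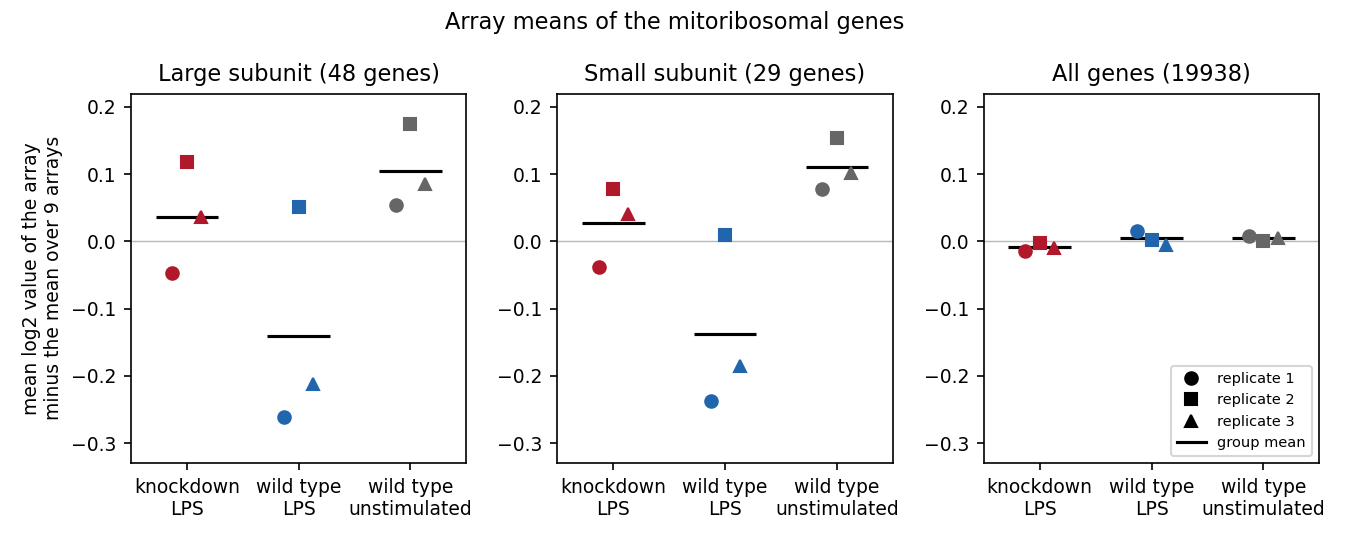
Each point is the mean log2 value of 1 array over the large-subunit genes, the small-subunit genes or all genes, less its mean over the 9 arrays, with the marker shape giving the replicate number and the black line the group mean. Replicates 1 and 3 of the LPS-treated wild-type cells lie lowest in both subunits, replicate 2 lies near the other groups, and the mean of all genes stays near 0.

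**Figure D2:**
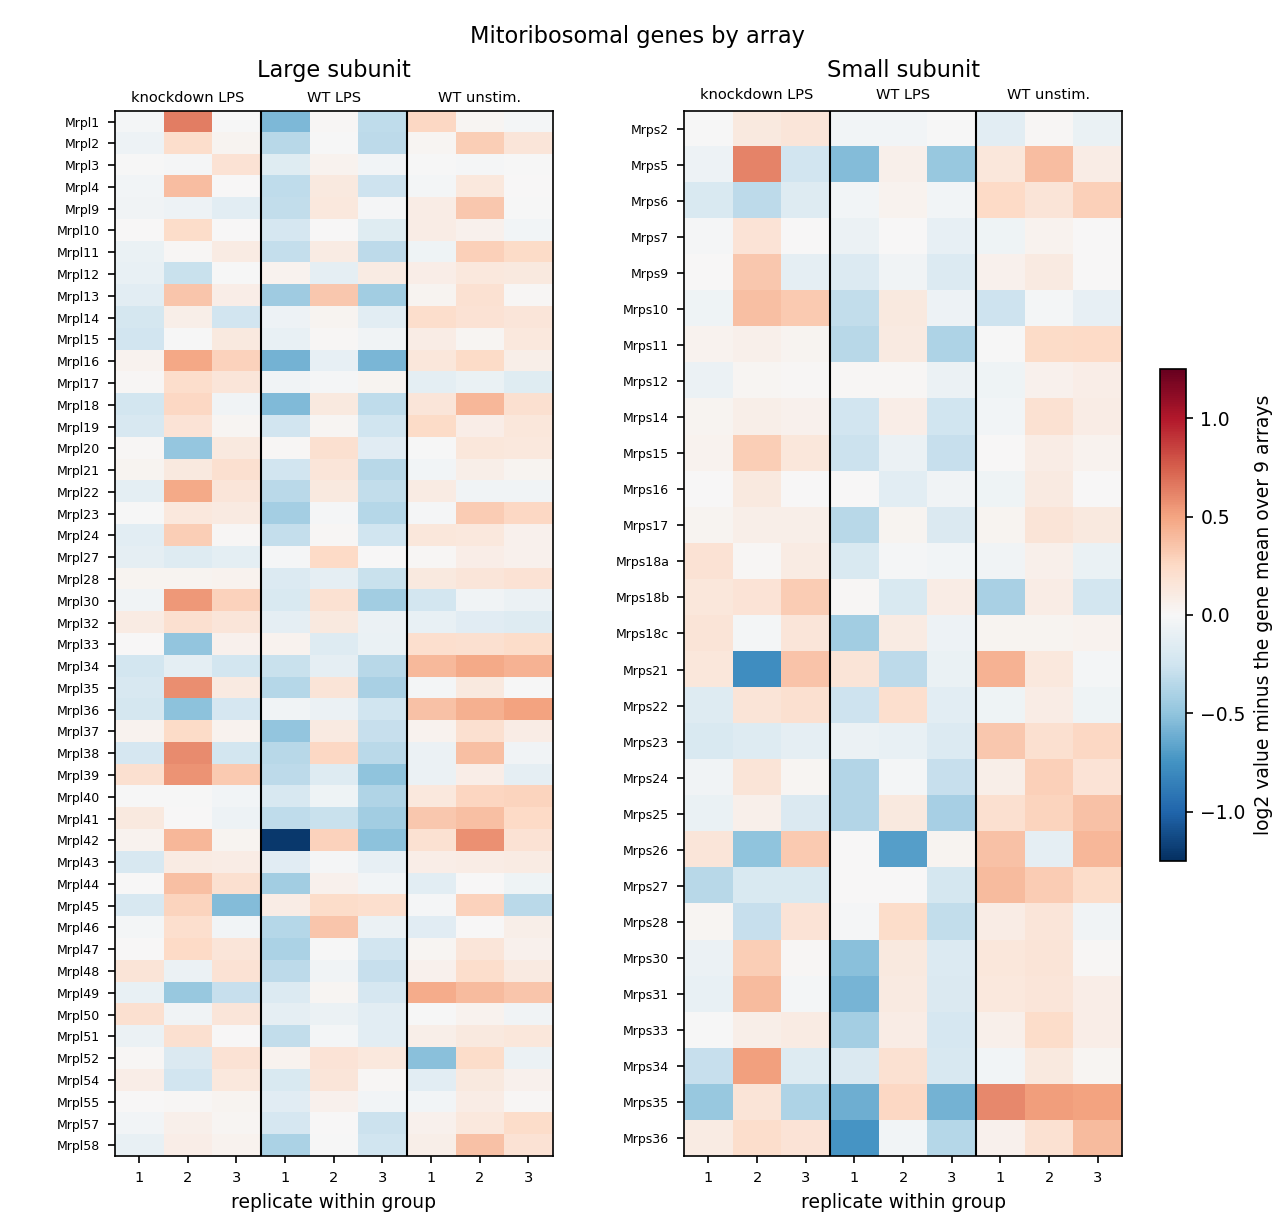
Colours give the log2 value of each of the 77 genes on each array less the gene's mean over the 9 arrays, from blue (lower) through white to red (higher), with the replicate number under each column. Many genes are bluest in replicates 1 and 3 of the LPS-treated wild-type cells, and Mrpl34, Mrpl36, Mrpl49, Mrps23 and Mrps27 are red in all unstimulated arrays.

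The first comparison was between LPS-treated and unstimulated wild-type cells. Most mitoribosomal genes had lower values after LPS, by about the same amount in both subunits, and 9 of them fell. The log2 difference was below 0 for 69 of the 77 genes, and above 0 for 8, where 40.3% of all genes lay below 0 and 59.7% above. Its median was -0.25 over the large subunit (range -0.79 to 0.23) and -0.25 over the small subunit (range -0.86 to 0.15), beside 0.04 over all genes. A gene was called when its limma p-value was under 0.05 after Benjamini-Hochberg adjustment across the 19938 genes. By that rule 9 members fell, 6 of the large and 3 of the small subunit (11.7%), beside 6.86% of all genes called lower. None rose, beside 3.99% of all genes called higher, and none was higher at an unadjusted p under 0.05, where 33 were lower (42.9%, beside 16% of all genes). The 3 values of the LPS group lay wholly below those of the unstimulated group for 32 members (beside 16.5% of all genes) and wholly above them for 1, Mrpl17 (beside 12.8%). Mitoribosomal genes gave brighter signals than most, and bright genes were lower after LPS more often than dim ones. Among the 6479 genes with a mean log2 value of at least 9, the median was -0.09, 61.0% lay below 0 and 12.5% were called lower. Among the 55 members of that brightness the median was -0.24, 85.5% lay below 0 and 14.5% were called lower, so the share called was near that of other bright genes.

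Among large-subunit proteins of bacterial type, Mrpl34 showed the clearest separation. Its log2 values were 10.61, 10.78 and 10.54 after LPS, against 11.29, 11.37 and 11.32 without it, and the mean after LPS was 62.2% of the unstimulated level (log2 difference -0.68, SE 0.07, limma adjusted p = 0.00154). Mrpl36, the protein with the bacterial counterpart L36, had 10.50, 10.48 and 10.30 after LPS, against 10.92, 11.00 and 11.05 (difference -0.56, adjusted p = 0.00996). Mrpl28 had 9.06, 9.11 and 8.94 after LPS, against 9.35, 9.38 and 9.40 (difference -0.34, adjusted p = 0.00987). All 3 were lower in every LPS-treated culture than in any unstimulated culture, replicate 2 included.

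The other 3 large-subunit genes that fell encode proteins without a bacterial counterpart. Mrpl41 had log2 values of 8.84, 8.88 and 8.73 after LPS, against 9.50, 9.54 and 9.41 in unstimulated cells, and its mean fell to 63.1% of the unstimulated level (difference -0.66, SE 0.07, adjusted p = 0.00159). Mrpl40 had 11.33, 11.47 and 11.15 after LPS, against 11.66, 11.79 and 11.80 (difference -0.43, adjusted p = 0.017). Mrpl49 had 9.89, 10.08 and 9.85 after LPS, against 10.52, 10.45 and 10.40 (difference -0.52, adjusted p = 0.017). The groups did not overlap for any of them, though the highest LPS value was replicate 2 in each.

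In the small subunit, Mrps23, a protein found in mitochondrial but not bacterial ribosomes, had log2 values of 10.10, 10.09 and 10.01 after LPS, against 10.52, 10.39 and 10.44 without it (difference -0.38, SE 0.06, adjusted p = 0.00633). Mrps27, a pentatricopeptide repeat protein, had 7.93, 7.93 and 7.71 after LPS, against 8.32, 8.24 and 8.15 (difference -0.38, adjusted p = 0.0247). Mrps24, of bacterial type, had 9.57, 9.92 and 9.66 after LPS, against 10.01, 10.24 and 10.11 (difference -0.40, adjusted p = 0.0459). Again no LPS value reached an unstimulated one. The size of these falls lay between those of Mrpl28 and Mrpl40.

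Several members had differences as large or larger and did not pass. Mrps35, a small-subunit protein of the mitochondrial kind, had the largest difference of all, with 7.72, 8.58 and 7.74 after LPS, against 8.92, 8.85 and 8.83 (difference -0.86, SE 0.25, adjusted p = 0.0619). Mrpl42 had 7.13, 8.62 and 7.82 after LPS, against 8.52, 8.90 and 8.51 (difference -0.79, SE 0.33, adjusted p = 0.17). Mrpl16, which lies near the peptidyl transferase centre in bacterial ribosomes, had 8.60, 9.09 and 8.61 after LPS, against 9.33, 9.43 and 9.26 (difference -0.57, adjusted p = 0.0507). Replicate 2 was the high LPS value each time, so that these groups were spread. Mrps36 (difference -0.59), Mrps5 (-0.53) and Mrpl18 (-0.50) were spread in the same manner. Of the 8 members above 0, none was called, and the highest were Mrpl52 at 0.23, Mrpl45 at 0.20, Mrps18b at 0.15, and Mrpl32 and Mrpl17 at 0.11 each.

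The number called depended on replicate 2 and on the pairing of cultures. The replicate numbers were taken to pair the arrays, and with the number as a block limma called 22 members lower, 13 of the large and 9 of the small subunit, beside 9.57% of all genes, and none higher, beside 5.19%. The 9 were among them, and the 13 added included Mrps35 (adjusted p = 0.0222), Mrpl16 (0.013), Mrpl18 (0.0129), Mrps5 (0.0257) and Mrps36 (0.0286). The others added were Mrpl2, Mrpl23, Mrpl39, Mrpl47, Mrpl58, Mrps15, Mrps25 and Mrps26, at 0.00953 to 0.0462. Without replicate 2 of the LPS-treated wild-type cells 32 members were called, and without replicate 2 in every group, an alternative added after seeing the data, 40 were called lower and 1 (Mrps18b) higher. Without replicate 2 of the knockdown, which enters only the estimate of spread, 15 were called. Without replicate 1 or replicate 3 of the LPS-treated wild-type cells, or replicate 3 of the unstimulated cells, 5 were called each time. The share of all genes called in the fits with arrays left out is not given here. These counts can therefore not be read as particular to the members. Mrpl34, Mrpl36, Mrpl41 and Mrps23 passed in all 18 alternatives run. Mrpl40 was lost without replicate 1 (0.0556) or 3 (0.0514) of the LPS-treated or replicate 3 (0.0711) of the unstimulated wild-type cells. Mrpl49 was lost without replicates 1 (0.0662) or 3 (0.0748) of the LPS-treated and 1 (0.0674) or 3 (0.0537) of the unstimulated cells. Mrps27 was lost without replicates 1 (0.0513) or 3 (0.0823) of the LPS-treated cells or any of the unstimulated ones (0.0879, 0.0555 and 0.0536). Mrps24 passed in 7 of the 18 and was lost without any of 7 arrays, which were replicates 1 (0.0651) and 3 (0.0742) of the knockdown, 1 (0.147) and 3 (0.154) of the LPS-treated and 1, 2 and 3 (0.0757, 0.116 and 0.121) of the unstimulated wild-type cells. Marker lists of other cell types had different values in this comparison too. All 12 neutrophil markers were above 0 (median 0.91, 1 called, Csf3r), and their average level was 8.94 to 10.3 after LPS, against 8.39 to 9.53 without it. The plasmacytoid markers averaged 7.56 to 8.07, against 7.43 to 7.65 (6 of 6 above 0, 1 called, Ccr9), and the mast cell and basophil markers 7.0 to 7.38, against 6.66 to 6.91 (10 of 11 above 0, 1 called, Hdc). The dendritic markers averaged 9.50 to 10.3, against 9.20 to 10.2 (11 of 17 above 0, with Cd83 and Cd86 called higher), and the macrophage markers 10.3 to 10.8, against 10.2 to 10.8 (5 of 13 above 0, none called, 2 higher and 1 lower at an unadjusted limma p under 0.05). With the block, Ccr7 and Marco were also called higher and Kmo and Kit lower. The part of these lists in the members' values was not tested. In RNA from whole cultures, fewer cells of a type and less RNA per cell cannot be told apart.

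**Figure D3:**
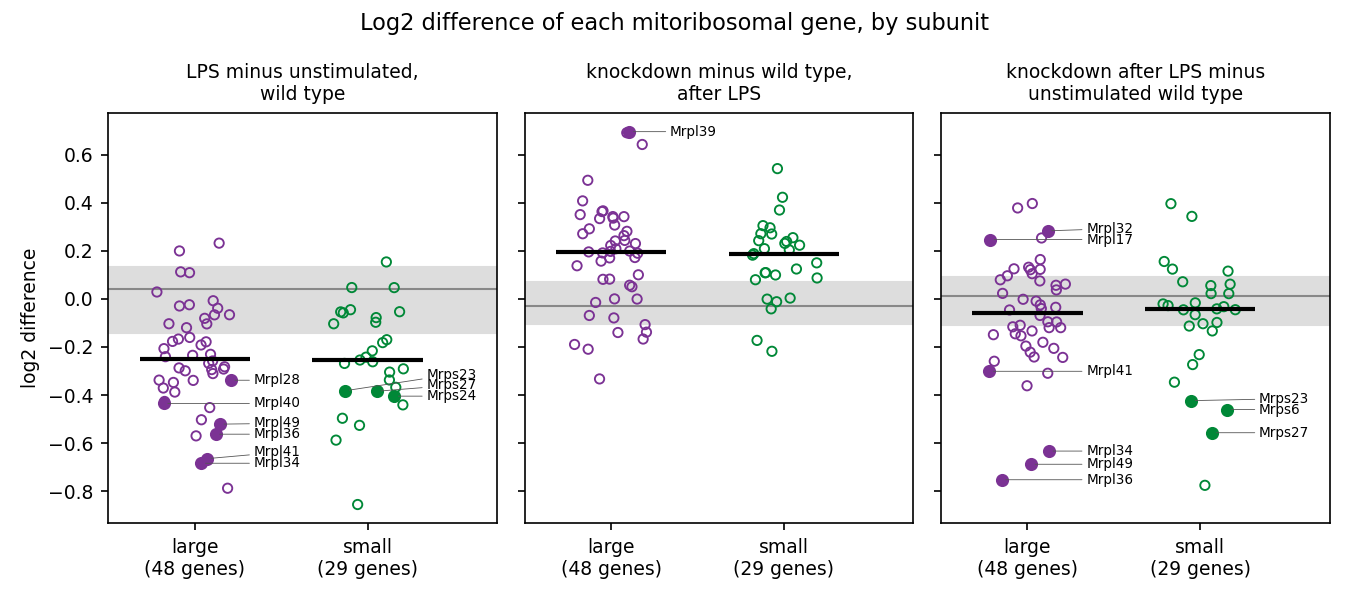
Each circle is the log2 difference of 1 gene in 1 of the 3 comparisons, filled and named where limma called it, with a black line at the median of the subunit and a grey line and band at the median and interquartile range of all genes. Both subunits sit below all genes after LPS (medians -0.25), above them in the knockdown (0.20 and 0.19) and close to them when the knockdown after LPS is set against unstimulated cells. The LPS-treated wild-type arrays enter the first and second comparisons with opposite sign.

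The second comparison was between knockdown and wild-type cells, both after LPS. It shares the LPS-treated wild-type arrays with the first comparison, with opposite sign, so the directions of the comparisons are not independent. Most mitoribosomal genes had higher values in the knockdown, by small amounts, and only Mrpl39 rose. The log2 difference was above 0 for 61 of the 77 genes (37 of 48 large and 24 of 29 small), and below 0 for 16, where 40.7% of all genes lay above 0 and 59.3% below. Its median was 0.20 over the large and 0.19 over the small subunit, beside -0.03 over all genes, and among genes with a mean of at least 9 it was 0.19 over 55 members beside 0.03 over all. Without 1 array at a time the median ran between 0.13 (without knockdown replicate 2) and 0.27 for the large subunit and between 0.12 (without LPS-treated wild-type replicate 1) and 0.26 for the small, highest in both without LPS-treated wild-type replicate 2. Limma called 1 member higher (1.3%, beside 0.401% of all genes) and none lower (beside 0.361%). At an unadjusted p under 0.05, 18 members were higher (beside 7.32% of all genes) and 2 were lower (beside 5.79%). The 3 knockdown values lay wholly above the wild-type ones for 12 members (beside 8.21%) and wholly below for 2, Mrps6 and Mrpl27 (beside 8.38%). Among genes with a mean of at least 9, 25.5% of members were higher at an unadjusted limma p under 0.05, beside 14.6% of all. Lower were 1.82%, beside 9.79%. The knockdown values lay wholly above for 20% of members of that brightness, beside 16% of all, and wholly below for 1.82%, beside 11.4%.

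Mrpl39, a large-subunit protein of the mitochondrial kind, had log2 values of 11.32, 11.69 and 11.46 in the knockdown, against 10.80, 10.97 and 10.62 in wild-type cells after LPS. Every knockdown value was above every wild-type one, and the mean was 1.62-fold higher (difference 0.70, SE 0.12, limma adjusted p = 0.0476). The call was lost without any 1 array other than replicate 2 of the LPS-treated wild-type cells, at 0.0548, 0.095 and 0.143 without knockdown replicates 1, 2 and 3, 0.151 and 0.153 without LPS-treated wild-type replicates 1 and 3, and 0.0801, 0.0565 and 0.0885 without unstimulated replicates 1, 2 and 3. No member was called in those fits. Without replicate 2 of the LPS-treated wild-type cells 3 members were called (Mrpl16, Mrpl21 and Mrpl39), and without replicate 2 in every group 3 were (Mrpl16, Mrpl39 and Mrpl48), all higher. The share of all genes called in these fits is not given here either.

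With the replicate number as a block, 4 members were called higher (beside 1.51% of all genes) and none lower (beside 1.24%). They were Mrpl39 (adjusted p = 0.0128), Mrpl16, Mrpl41 and Mrps15. Mrpl16 had 9.23, 9.67 and 9.48 in the knockdown, against 8.60, 9.09 and 8.61 in wild-type cells (difference 0.69, adjusted p = 0.0899, and 0.0238 with the block). Mrpl41 had 9.28, 9.16 and 9.10 in the knockdown, against 8.84, 8.88 and 8.73 (difference 0.36, adjusted p = 0.0709, and 0.0384 with the block). Mrps15, a small-subunit protein of bacterial type, had 11.95, 12.21 and 12.05 in the knockdown, against 11.64, 11.84 and 11.62 (difference 0.37, adjusted p = 0.105, and 0.0409 with the block). In all 4 genes the groups did not overlap, and the wild-type replicate 2 was the highest of its group.

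Other members had differences of similar size with overlapping groups. Mrpl42 had 8.38, 8.75 and 8.37 in the knockdown, against 7.13, 8.62 and 7.82 (difference 0.64, SE 0.33, adjusted p = 0.46). Mrpl1, a protein of the stalk at the exit site in bacterial ribosomes, had 8.78, 9.45 and 8.80, against 8.24, 8.82 and 8.49 (difference 0.49, adjusted p = 0.354). Mrps5 (0.42), Mrpl30 (0.41) and Mrpl35 (0.37) were not called either. On the other side, Mrpl45, which in mammals holds the ribosome at the inner membrane, had the lowest difference of all (-0.33, adjusted p = 0.56).

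Cell type markers also differed in this comparison, mostly toward lower values in the knockdown, while most members were higher there. The 17 dendritic markers averaged 8.24 to 9.21 in the knockdown arrays, against 9.50 to 10.3 in wild-type cells after LPS, and all 17 were below 0, 11 at an unadjusted p under 0.05 and 1 (Cd86) called, or 9 with the replicate block. The mast cell and basophil markers averaged 6.31 to 6.67, against 7.0 to 7.38, and the neutrophil markers 7.75 to 9.70, against 8.94 to 10.3, with none called in either list without the block, and 3 (Kit, Cpa3 and Gata2) and 1 (Mpo) called lower with it. The plasmacytoid markers averaged 7.44 to 7.61, against 7.56 to 8.07. The 13 macrophage markers averaged 9.93 to 10.9, against 10.3 to 10.8 (1 called higher, Spic), and the 8 lymphocyte markers 5.77 to 5.88, against 5.83 to 5.96. Array values have no true 0, so no marker could be called absent. The part of these markers in the members' values was not tested.

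The third comparison set knockdown cells after LPS against unstimulated wild-type cells, and it shares its arrays with the other comparisons. Here 49 members were below 0 and 28 above, where 45.5% of all genes lay below 0 and 54.4% above, and the medians were -0.06 over the large and -0.04 over the small subunit, beside 0.01 over all genes. Without 1 array at a time they ran between -0.12 (without knockdown replicate 2) and -0.01 (without unstimulated replicate 2) for the large subunit, and between -0.08 (without unstimulated replicate 1) and -0.01 (without knockdown replicate 1) for the small. Among members with a mean of at least 9 the median was -0.10 over 38 large-subunit and 0.02 over 17 small-subunit genes, beside -0.04 over all genes of that brightness. Limma called 7 members lower (9.09%, beside 6.64% of all genes) and 2 higher (2.6%, beside 4.23%). Among genes with a mean of at least 9, it called 9.09% of members lower, beside 12.1% of all, and 3.64% higher, beside 10.6%. Leaving out 1 array gave between 6 and 10 calls, with the share of all genes in those fits not given here. At an unadjusted limma p under 0.05, 14 members were lower (18.2%, beside 13.8% of all genes) and 6 higher (7.79%, beside 9.24%). With a mean of at least 9, 16.4% of members were lower by that limma p, beside 24.6% of all genes. The block called 9 lower (11.7%, beside 8.65% of all genes) and 3 higher (3.9%, beside 5.62%). It added Mrps35 (limma adjusted p = 0.0298), Mrpl14 (0.0446), Mrpl39 (0.0183) and Mrps10 (0.0231), and Mrpl17 (0.0529) was lost.

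By size, the 3 largest of the 7 lower differences were in the large subunit. Mrpl36 had log2 values of 10.33, 10.04 and 10.34 in the knockdown after LPS, against 10.92, 11.00 and 11.05 in unstimulated cells (difference -0.75, adjusted p = 0.00295). Mrpl49 had 9.96, 9.58 and 9.77, against 10.52, 10.45 and 10.40 (difference -0.69, adjusted p = 0.00517). Mrpl34 had 10.66, 10.77 and 10.66, against 11.29, 11.37 and 11.32 (difference -0.63, adjusted p = 0.00193). None of the knockdown values reached an unstimulated one, and limma called none of the 3 between knockdown and wild-type cells after LPS (differences -0.19, -0.17 and 0.05, adjusted p = 0.468, 0.548 and 0.809). In the small subunit, Mrps27 (difference -0.56, adjusted p = 0.00526) and Mrps23 (-0.42, adjusted p = 0.00369) were lower too. Mrps6, of bacterial type, had 8.76, 8.62 and 8.79 in the knockdown, 8.91, 8.99 and 8.91 in LPS-treated wild-type cells and 9.20, 9.11 and 9.24 in unstimulated cells. Its 3 groups did not overlap, and only the difference between the knockdown and unstimulated cells was called (-0.46, adjusted p = 0.00431).

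Mrpl41 lay between the other groups, and its difference from unstimulated cells was called at -0.30 (adjusted p = 0.0333), against -0.66 in wild-type cells. That call was lost without knockdown replicates 2 (0.0739) or 3 (0.127), LPS-treated wild-type replicate 1 (0.0511) or any unstimulated replicate (0.0971, 0.0909 and 0.0653). The 2 higher genes encode large-subunit proteins of bacterial type. Mrpl32, which in yeast and mouse mitochondria is matured by the m-AAA protease, had 9.29, 9.39 and 9.35 in the knockdown, against 9.10, 9.05 and 9.03 in unstimulated cells (difference 0.28, adjusted p = 0.0431). Mrpl17 had 9.49, 9.69 and 9.62, against 9.35, 9.39 and 9.32 (difference 0.25, adjusted p = 0.0473). The groups did not overlap for either gene. The Mrpl32 call was lost without any knockdown replicate (0.0802, 0.101 and 0.131), LPS-treated wild-type replicate 3 (0.0652) or any unstimulated replicate (0.0862, 0.0988 and 0.14). The Mrpl17 call was lost without any 1 array except knockdown replicate 1, at 0.0519 to 0.155, the lost arrays being knockdown replicates 2 (0.11) and 3 (0.153), LPS-treated replicates 1 (0.0642), 2 (0.0519) and 3 (0.0717) and unstimulated replicates 1 (0.117), 2 (0.0763) and 3 (0.155). Of the largest differences that were not called, Mrps35 was at -0.78, Mrpl39 and Mrps18b at 0.40 and Mrpl30 at 0.38.

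**Figure D4:**
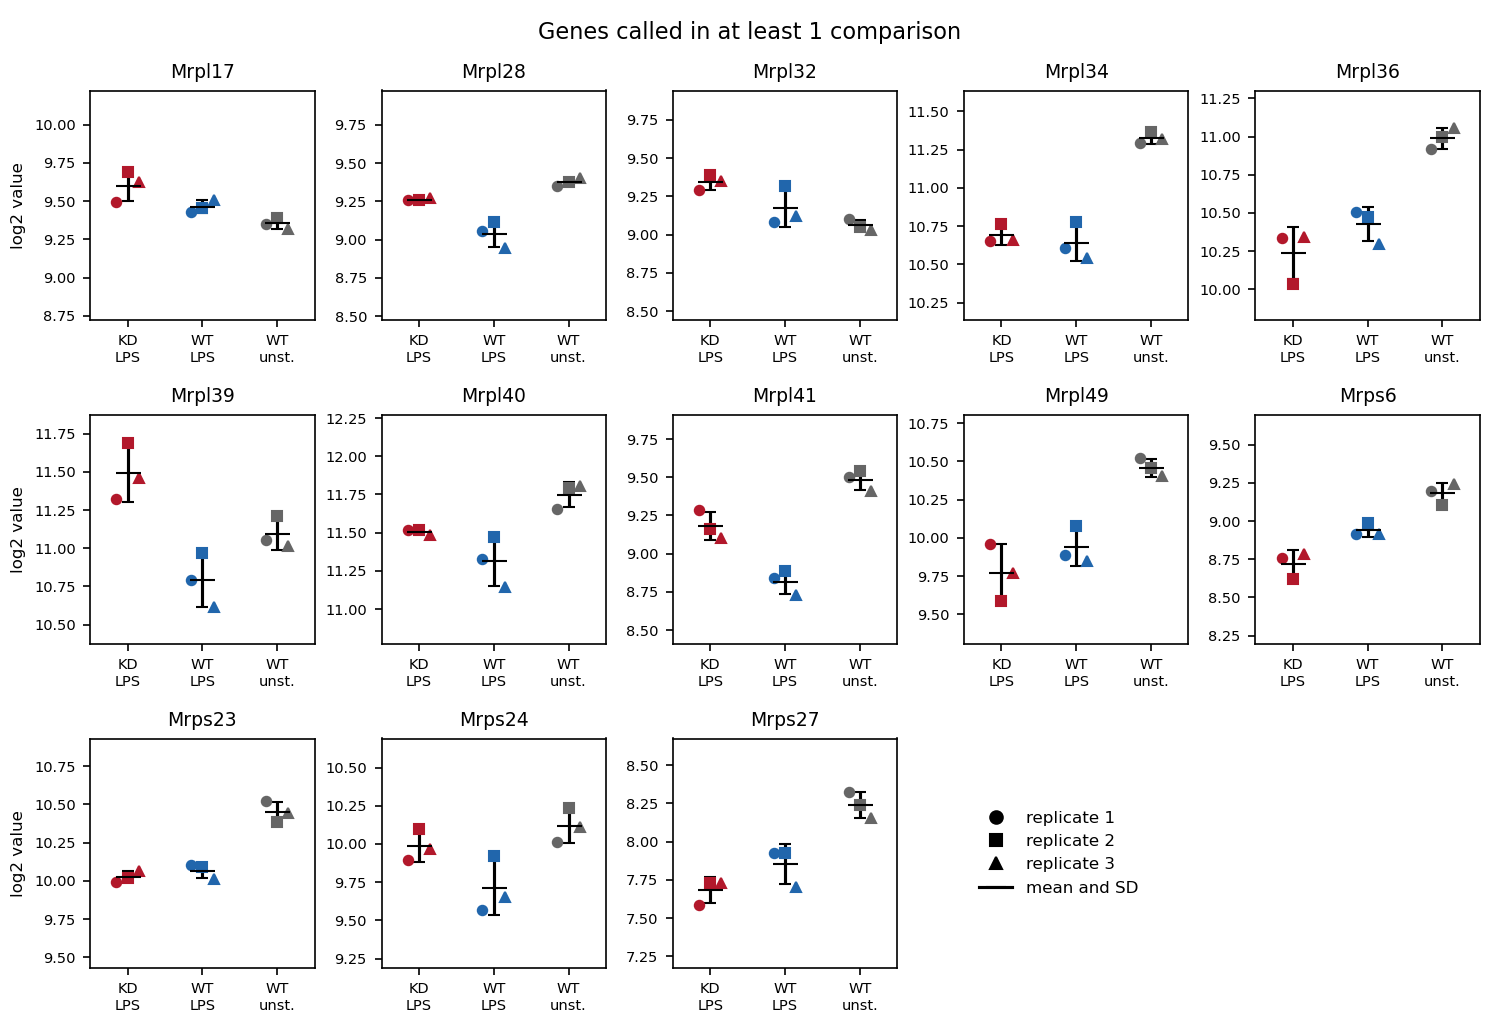
Log2 values on the 9 arrays of the 13 genes called in at least 1 comparison, with a panel per gene, a marker per array shaped by replicate number, and the mean and SD of each group in black. Each panel spans the same range of log2 units. Mrpl34, Mrpl36, Mrpl49, Mrps23 and Mrps27 are low in both LPS-treated groups, while Mrpl39 is highest in the knockdown.

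The subunits moved together on each array. Pair by pair, the mean difference between LPS-treated and unstimulated wild-type cells was -0.32, -0.12 and -0.30 for the large subunit and -0.32, -0.14 and -0.29 for the small. Between LPS-treated knockdown and wild-type cells it was 0.21, 0.07 and 0.25 for the large subunit and 0.20, 0.07 and 0.23 for the small. Pair 2 had the smallest difference in both subunits and both comparisons. The gap between the mean of the large-subunit and that of the small-subunit genes on an array, whose size depends on the probes, was 0.361, 0.411 and 0.365 log2 units in the knockdown after LPS, 0.347, 0.412 and 0.342 in LPS-treated wild-type cells and 0.346, 0.391 and 0.354 in unstimulated cells. Replicate 2 had the widest gap in every group. Within pairs the gap was wider in the knockdown than in unstimulated cells in all 3, and the other comparisons did not run 1 way in every pair. No test of the gap was run. Without 1 array at a time, the median after LPS ran between -0.35 and -0.17 for the large subunit and between -0.29 and -0.17 for the small, lowest without LPS-treated wild-type replicate 2 and highest without replicate 1 of that group. In mammalian structures Mrps18a and Mrps30 sit in the large subunit, and Mrps36 is now known as a subunit of the oxoglutarate dehydrogenase complex. With the first pair counted as large and Mrps36 left out, the medians were -0.25 and -0.25 after LPS and 0.20 and 0.17 in the knockdown, large first. Their own differences after LPS were -0.06, -0.29 and -0.59, and 0.18, 0.27 and 0.54 between knockdown and wild type, none called.

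Grouped by ancestry, 29 large-subunit members of bacterial type had a median of -0.24 after LPS with 3 called lower (10.3%), and 18 of the mitochondrial kind -0.28 with 3 called lower (16.7%). In the small subunit, 15 of bacterial type had a median of -0.22 with 1 called lower (6.67%) and 9 of the mitochondrial kind -0.38 with 2 called lower (22.2%), and all 9 were below 0. Of all genes 6.86% were called lower, and of those with a mean of at least 9, 12.5%. In the knockdown after LPS the medians of these 4 lists were 0.20, 0.20, 0.20 and 0.12, with Mrpl39, of the large mitochondrial list, the only call. The other members were placed in none of the lists. No test of the difference between lists was run.

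The rest of the mitochondrial translation machinery was measured with the members. Of mitoribosomal proteins with other symbols, 4 of 5 listed genes were measured, and Dap3, a GTP-binding protein of the small subunit, fell after LPS (difference -0.43, adjusted p = 0.0117) and was higher in the knockdown than in wild-type cells after LPS (0.46, adjusted p = 0.0424). All 13 translation factors were below 0 after LPS (median -0.28), and none was called, with 7 lower at an unadjusted limma p under 0.05. The lowest p-values among them were those of the elongation-related GTPase Guf1 (-0.91, adjusted p = 0.0931) and the initiation factor Mtif3 (-0.33, adjusted p = 0.0952). With the block, Guf1 (adjusted p = 0.0301) and the translational activator Taco1 (-0.47, adjusted p = 0.0399) were called lower. Of 16 mitochondrial aminoacyl-tRNA synthetases, 15 were below 0 (median -0.26) and Nars2, for asparagine, fell (-0.99, adjusted p = 0.0165), while the block called 3 lower, Nars2, Lars2 and Iars2. Of 24 assembly factors, 20 were below 0 (median -0.14), and Rbfa, which matures the small subunit, and Ngrn, which binds the large-subunit RNA, fell (-1.02, adjusted p = 0.0267, and -0.66, adjusted p = 0.0489), and the block called 5 lower, adding Mtg1, Mettl17 and Mpv17l2. In the knockdown after LPS the medians were 0.16 for the factors, 0.12 for the synthetases and 0.06 for the assembly factors, and limma called none in any of these 3 lists, with or without the block, with 2, 3 and 3 higher at an unadjusted p under 0.05.

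Genes that act before translation had medians near 0 after LPS. Over 11 genes of mitochondrial transcription and mRNA handling it was 0.00, and Tfb2m, a transcription factor of mitochondrial DNA, was the only call (-0.49, adjusted p = 0.0298). Among 10 regulators of mitochondrial biogenesis, Gabpb1, the beta partner of GABPA, rose after LPS (0.76, adjusted p = 0.00704), as did Nrf1 (0.38, adjusted p = 0.0182), while the coactivator Ppargc1b fell (-0.63, adjusted p = 0.0197). In the knockdown after LPS none of the 10 was called against wild-type cells, with 3 higher and 2 lower at an unadjusted limma p under 0.05. Cytosolic ribosomal proteins were lower after LPS by less, with medians of -0.14 over 32 of 45 listed large-subunit and -0.20 over 22 of 32 listed small-subunit genes and no call (7 and 11 lower at an unadjusted limma p under 0.05). In the knockdown they were higher by about as much as the mitochondrial ones, with medians of 0.21 and 0.21. Above 0 were 32 of 32 and 21 of 22. At an unadjusted limma p under 0.05, 21 large-subunit (65.6%) and 12 small-subunit genes (54.5%) were higher. The share was 23.4% of mitoribosomal genes and 14.6% of all genes with a mean of at least 9. Limma called 1, Rps13 (0.38, adjusted p = 0.0234), and the block added Rpl36a (0.46, adjusted p = 0.0489).

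**Figure D5:**
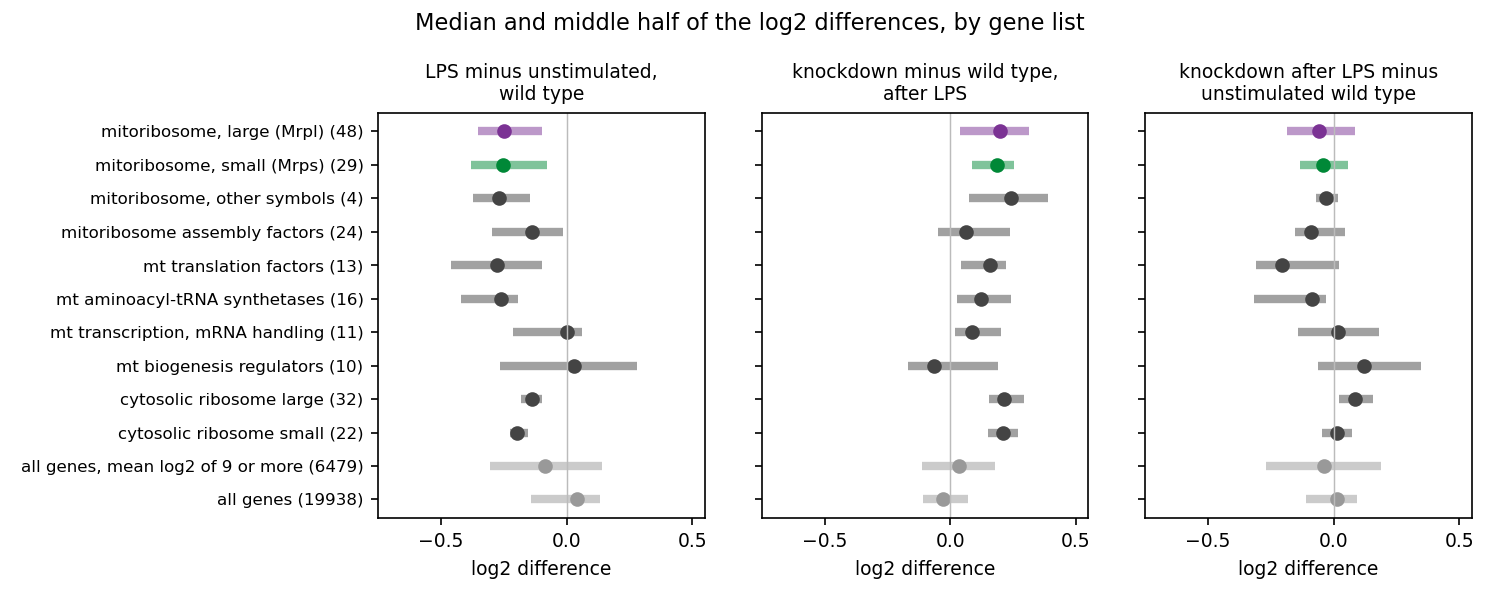
Points are the median and bars the interquartile range of log2 differences over the genes of each list (number measured in brackets) in the 3 comparisons, with all genes and bright genes at the bottom. After LPS the mitoribosomal lists lie below bright genes (medians -0.25 and -0.25 against -0.09), and in the knockdown cytosolic ribosomal genes lie as far above 0 as the mitochondrial ones.

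A second probe set was present for 8 members and gives a check within the arrays. For Mrpl41 it gave -0.52 after LPS (adjusted p = 0.0173 over all single-gene probe sets), beside -0.66 for the set used, and for Mrpl23 -0.45 beside -0.45. For Mrpl47 and Mrpl51 the second set gave 0.04 and -0.04, beside -0.29 and -0.27, so the probe sets of these genes disagreed. Neither set was called without the block. With the block limma called the Mrpl47 set used lower (adjusted p = 0.0365), so that call rests on 1 of its 2 probe sets. In the knockdown Mrpl41 gave 0.25 and 0.36, and Mrpl47 0.01 and 0.35, second set first. Between the knockdown after LPS and unstimulated cells, Mrpl41 gave -0.27 (limma adjusted p = 0.152) and -0.30 (0.0342) in the same order. The second sets of Mrps5 and Mrps36 gave -0.61 and -0.62 after LPS, beside -0.53 and -0.59, and those of Mrpl27 and Mrps33 gave 0.03 and -0.28, beside 0.03 and -0.30. Where probe sets lie was not used here, and hybridisation with other copies of a gene was not tested.

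Many members share a start region with a gene on the other strand. Of the 68 members with a RefSeq window, 24 (35.3%) had the start of a protein-coding gene on the opposite strand within 1000 bases upstream, beside 8.04% of 17492 protein-coding genes. The share was 40.5% for the large and 26.9% for the small subunit. Mrpl46 and Mrps11, 1 of each subunit, start 42 bases apart, and their differences after LPS were -0.01 and -0.37, neither called. Of 21 measured partners outside the family, 4 fell after LPS and 1 rose, beside 6.86% of all genes called lower and 3.99% called higher. Ptcd2, whose start lies 108 bases from that of Mrps27, fell by 0.46 on the log2 scale (adjusted p = 0.0355, and 0.0525 with the block) and Pnpla7, 935 bases from Mrpl41, fell by 0.90 (adjusted p = 0.00995). Fau, 192 bases from Mrpl49, was at -0.02 (adjusted p = 0.817), and Hira, 113 bases from Mrpl40, at -0.40 (adjusted p = 0.0517, and 0.0486 with the block). Klc4, beside Mrpl2 (-1.41, limma adjusted p = 0.000606), and Twnk, beside Mrpl43 (-0.41, 0.035), fell next to members not called without the block. Tmem63b was the partner that rose (0.35, limma adjusted p = 0.0434), beside Mrpl14 at -0.24, not called. The genes that fell thus stood beside partners that fell and partners that were not called.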

How the data were processed

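Total RNA from 9 cultures was hybridised to Affymetrix mouse Gene 1.0 ST arrays. Per the submitters' processing notes, the authors computed the deposited log2 values with RMA, of unstated version, which subtracts background, normalizes across arrays and summarises each probe set. They were used as deposited. Of 35556 probe sets, 21789 named a single gene and 1621 several. Symbols were updated through Entrez identifiers in the RefSeq table of GRCm38.p6 (21698 matched, 91 kept as given). A gene was represented by its single-gene probe set with the highest mean, and Mrpl53, found only on a probe set naming 2 genes, was left out.

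Group means were fitted to all 9 arrays with limma 3.58.1 in R 4.3.3 (moderated two-sided tests, 6 residual and 2.31 prior degrees of freedom, Benjamini-Hochberg adjustment over 19938 genes, called at an adjusted p under 0.05). The number of arrays limits the precision. Errors on differences are SEs from this fit. The deviations of same-numbered arrays from their group means correlated at 0.14 to 0.48 in all 9 pairs, against -0.41 to 0.25 for different numbers, so the replicate numbers were taken to pair the arrays, and a fit with the number as a block was run. The fit was tested on simulated data with known differences larger than any of the members' and no correlation between same-numbered arrays. That test does not bear on differences of the members' size. Other alternatives were leaving out each array, dropping dim genes, normalizing or centring again, averaging probe sets, a trend in the prior variance, fitting 6 arrays and the platform's symbols. Named members were those called, the 10 largest differences of each comparison, those with a second probe set, and Mrps18a, Mrps30 and Mrps36. From other lists up to 4 genes with the smallest p-values could be named, and genes named beyond these rules (divergent partners, markers) were chosen after their values were seen. The members and lists were chosen with earlier results of these data known. Lists are described by counts and medians without a test.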

Additional observations from a re-analysis of the deposited data

How the results depend on the processing

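The medians of both subunits kept their sign in all 3 comparisons under every alternative run. The counts of members called depended on the choices. Except where stated above, the share of all genes called in the same fit is not given, so the counts cannot be read as particular to the members. For LPS against unstimulated wild-type cells (9 called), the block gave 22, leaving out genes below the 25th percentile of mean level 15, and leaving out replicate 2 in every group, added after seeing the data, 41. Leaving out 1 array gave between 5 and 32, and moved the median of the small subunit between -0.29 and -0.17. Normalized again between arrays, Mrpl28 (limma adjusted p = 0.0713) and Mrps24 were lost. Mrpl32 was then called higher (0.22, limma adjusted p = 0.0415), beside a difference of 0.11 in the main fit. Differences thus changed in size with the normalization, and the medians after normalizing again are not given here. For knockdown against wild-type cells after LPS (1 called), the block gave 4, centring each array on the median of all genes 0, fitting only the 6 arrays compared 0, and leaving out replicate 2 in every group 3. Leaving out 1 array gave between 0 and 3. For knockdown after LPS against unstimulated cells (9 called), no alternative moved the count by over 1.5 times. Of the 7 lower genes, 6 passed in all 18 alternatives, Mrpl41 being the exception. Mrpl41 passed in 6 of the 18, and was also lost on normalizing or centring again, averaging probe sets, the variance trend and fitting 6 arrays. Of the higher genes, Mrpl32 passed in 9, with losses on centring and the trend too, and Mrpl17 in 4. The causes of these changes were not tested, beyond the fewer genes or arrays in each. With 3 arrays a group, the median within-group SD was 0.16 for large-subunit and 0.17 for small-subunit genes, beside 0.12 for all genes, so that differences of the median size were called for few members. The block changed no other member's call than those named with each comparison. In the third comparison it also added 1 translation factor (Oxa1l), 1 synthetase (Lars2) and 1 assembly factor (Rbfa), all lower, and Rpl14, higher.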
